A study of Mus musculus with 4 samples.

Results

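The Slc25a genes encode the mitochondrial carrier family, and they were taken here as all genes whose platform symbol starts with Slc25a. This rule found 46 of the 19938 genes with a probe set of their own, measured by 50 probe sets on 4 Affymetrix Mouse Gene 1.0 ST arrays of mouse liver. The tested mice carried a conditional Sirt6 allele and a Cre transgene under the albumin promoter (SIRT6Co/Co ;Alb-Cre, labelled KO), and the others were labelled WT SIRT6. The labels do not say whether the WT mice carried the Cre transgene, nor the sex or strain of either genotype. The albumin promoter drives Cre in hepatocytes, and whether other liver cells kept the allele was not tested. Livers were taken at 8 and at 2 months of age, and RNA from 3 pairs of mice was combined before hybridization, which left 1 array for each of KO at 8 months, KO at 2 months, WT at 8 months and WT at 2 months.

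Carriers of this family are small proteins of the inner mitochondrial membrane, built from a repeated module with paired membrane helices. They move ATP, ADP, phosphate, citrate, amino acids, acylcarnitines, cofactors and iron between the cytosol and the matrix. In liver they link mitochondria to fatty acid oxidation, gluconeogenesis, lipid synthesis and the urea cycle. A few members lie outside the inner membrane, such as Slc25a17 in peroxisomes and Slc25a46 in the outer membrane.

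Values are log2 signals made by the authors with RMA, and a difference of 1 is a 2-fold change. Signals of different genes cannot be ranked against each other, because probes differ in brightness. Genes with a mean over the 4 arrays above 3.34, the 40th percentile of all genes, entered the comparisons, and 40 members did so. The 6 others read 2.02 to 3.26 in every array and were not tested. They were the testis-type ADP/ATP carrier Slc25a31, the ornithine carrier Slc25a2, the glutamate carrier Slc25a18, the ATP-Mg/phosphate carrier relatives Slc25a41 and Slc25a54, and the orphan Slc25a53. The genotype test was an additive limma model of genotype and age over 11963 genes, with Benjamini-Hochberg adjustment and a threshold of 0.05. It compares 2 arrays per genotype and has 1 residual degree of freedom per gene, so its p-values do not measure the spread between mice or between pools of a group. Rose, fell and called are used only for genes past this threshold, and a difference at a single age comes from 2 arrays and has no test.

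The Sirt6 probe set did not separate the genotypes. It read 4.46 and 4.535 in KO at 8 and 2 months, against 4.505 and 4.55 in WT at 8 and 2 months (limma adjusted p = 0.922). Where it lies relative to the deleted exons is not known here, so it does not check the labels, and every direction below rests on those labels. Hepatocyte markers were present, with the albumin gene Alb at 12.5 to 12.6 and the hepatocyte factor Hnf4a at 9.09 to 9.13 in every array. Of the 7 hepatocyte markers tested, 0 were called in the limma fit and 2 had an unadjusted p under 0.05. These were Apoa1 at -0.23 and Cps1 at -0.24, both lower in KO at both ages (limma adjusted p = 0.0596 and 0.0594). Of markers of other liver cells, 2 of 6 for Kupffer cells and 1 of 6 for sinusoidal endothelium rose, and 0 of these fell. In whole liver RNA, fewer cells of a type and less RNA per cell cannot be told apart.

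Of the 40 members tested, 3 rose and 7 fell in the KO-labelled arrays. Slc25a25, a calcium-regulated carrier that exchanges ATP-Mg for phosphate, rose most, by 1.08 on the log2 scale or 2.12-fold. Slc25a47, a carrier found mainly in liver, fell most, by 0.97, which puts WT 1.96-fold above KO. The other 2 that rose were Slc25a22 and Slc25a23, and the other 6 that fell were Slc25a4, Slc25a33, Slc25a48, Slc25a32, Slc25a38 and Slc25a13. Among all genes tested 11.1% were called, 6.81% higher and 4.26% lower in KO, while the members called made up 25% of the 40, with 7.5% higher and 17.5% lower. An unadjusted p under 0.05 was reached by 17 members, or 42.5%, against 25% of all genes tested. The median difference of the 40 was -0.065 at 8 months and 0.01 at 2 months, against 0.00 and 0.02 over all genes tested. Both KO arrays lay on the same side of both WT arrays for 27 members, or 67.5%, against 54.8% of all genes tested, with KO above WT for 11 members (29.1% of all genes tested) and below it for 16 (25.7% of all genes tested).

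At least 1.5-fold differences in the same direction at both ages were limited to Slc25a25 and Slc25a47, or 5% of the 40, against 2.84% of all genes tested, 1.78% higher and 1.06% lower in KO. At 8 months those 2 alone passed 1.5-fold, where 4.34% of all genes tested did, 2.41% higher and 1.93% lower. At 2 months 6 members passed, where 6.37% of all genes tested did, 3.98% higher and 2.39% lower, as Slc25a4, Slc25a33, Slc25a48 and Slc25a34 were also below WT by that much.

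**Figure D1:**
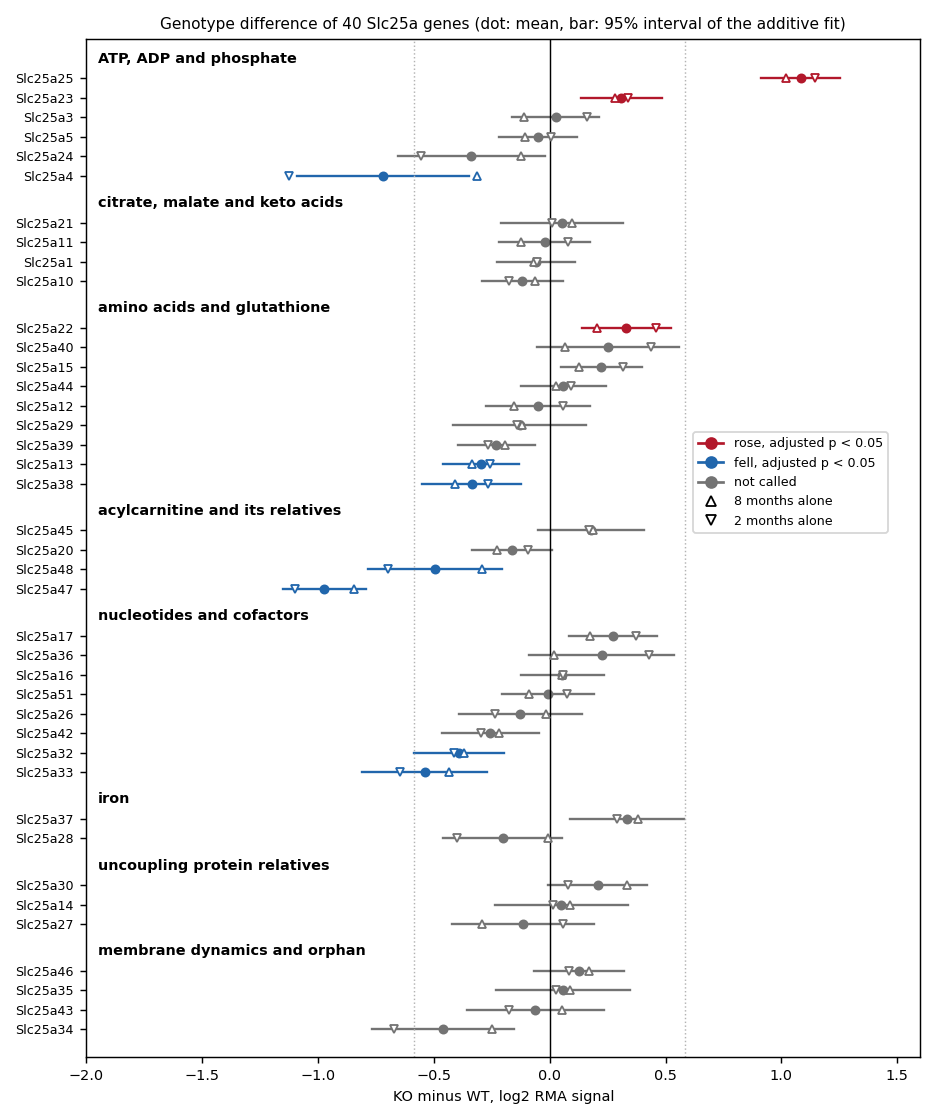
KO minus WT differences in log2 RMA signal on the horizontal axis for the 40 Slc25a genes tested, grouped by what they carry. Dots are means over 2 ages, bars are 95% intervals of the additive limma fit, triangles are single ages without a test, and dotted lines mark 1.5-fold. Slc25a25 at 1.08 and Slc25a47 at -0.97 lie outside the dotted lines at both ages, and Slc25a4 has its ages farthest apart.

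Carriers of adenine nucleotides and phosphate held the gene that rose most and a gene that fell. Slc25a25 read 9.55 in KO at 8 months and 9.57 in KO at 2 months, against 8.53 in WT at 8 months and 8.42 in WT at 2 months. The KO arrays differed from each other by 0.01 and lay more than 1 unit above WT at either age. The limma difference was 1.08 (SE 0.08, 95% interval 0.912 to 1.254, adjusted p = 1.56e-06).

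Slc25a25 has 3 promoter windows in RefSeq (GRCm38.p6), each running from 250 bases before to 50 after a start site. The probe set does not say which start was used. Windows of 36 of the 46 members were searched on both strands for 7 short motifs, among them the full cyclic AMP response element TGACGTCA, which contains its shorter core TGACG on both strands. It stood in 1 of the 3 Slc25a25 windows, at positions -150 to -143 before the start site, and in 1.79% of all 32851 windows of that length. The other member with it was Slc25a36, a pyrimidine nucleotide carrier, at -161 to -154. These windows are shown because they hold the element in a member that rose and in a member that was not called, and the Slc25a47 window because that gene fell most. Capitals mark the element, and each sequence reads 5′ to 3′ on the gene's strand.
Slc25a25, chr2:32424017-32424316, minus strand: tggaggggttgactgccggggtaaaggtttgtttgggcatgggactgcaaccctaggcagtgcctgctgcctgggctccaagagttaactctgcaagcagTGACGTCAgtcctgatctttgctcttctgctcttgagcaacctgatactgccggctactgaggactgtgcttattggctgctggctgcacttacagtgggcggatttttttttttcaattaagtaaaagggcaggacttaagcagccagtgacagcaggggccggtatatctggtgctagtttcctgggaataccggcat
Slc25a36, chr9:97110992-97111291, minus strand: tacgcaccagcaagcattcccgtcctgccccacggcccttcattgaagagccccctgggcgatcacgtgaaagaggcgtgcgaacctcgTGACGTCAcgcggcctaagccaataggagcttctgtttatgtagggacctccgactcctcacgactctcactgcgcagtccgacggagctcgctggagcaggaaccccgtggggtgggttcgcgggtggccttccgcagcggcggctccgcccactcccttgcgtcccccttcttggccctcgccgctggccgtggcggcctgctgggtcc
Slc25a47, chr12:108850879-108851178, plus strand: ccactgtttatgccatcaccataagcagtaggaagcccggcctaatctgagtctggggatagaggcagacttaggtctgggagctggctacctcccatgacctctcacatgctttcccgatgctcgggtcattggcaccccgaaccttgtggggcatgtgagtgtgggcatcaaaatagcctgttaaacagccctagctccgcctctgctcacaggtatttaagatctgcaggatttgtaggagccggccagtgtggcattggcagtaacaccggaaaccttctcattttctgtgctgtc
The Slc25a47 window held 0 matches to the 7 motifs. Others searched were the AP-1 site TGANTCA, in 7.81% of all windows, the E-box CACGTG, in 7.15%, and the ETS core CCGGAAG, in 8.86%. Partial elements searched were AAGGTCA of the estrogen-related receptor, in 4.72%, and AGAACA of the glucocorticoid receptor, in 19.0%. The core TGACG stood in 20.8% of all windows and in windows of 12 members. Called among these were Slc25a13, Slc25a25, Slc25a33 and Slc25a48. Slc25a1, Slc25a3, Slc25a14, Slc25a16, Slc25a28, Slc25a36 and Slc25a40 were not called, and Slc25a53 was not tested. The 36 members had 46 windows, so the count of members and the share of windows are unlike measures. A match describes letters in the window and does not show that a factor binds there.

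Slc25a23, which like Slc25a25 carries ATP-Mg against phosphate, rose by a smaller amount. It read 8.44 and 8.69 in KO at 8 and 2 months, against 8.16 and 8.35 in WT at 8 and 2 months, so the lower KO array was 0.09 above the higher WT array. The limma difference was 0.31 (SE 0.08, adjusted p = 0.025). In both genotypes the array at 8 months lay below that at 2 months, by 0.25 in KO and 0.20 in WT. An additive fit on 3 arrays has no residual, so arrays were left out in turn from fits on genotype alone. That fit did not call Slc25a23 with all 4 arrays either (adjusted p = 0.0645). Without KO at 2 months the difference was 0.18 with an adjusted p of 0.388. It was also not called without KO at 8 months (0.44, adjusted p = 0.0579) or without WT at 8 months (0.21, adjusted p = 0.28). On all 4 arrays the additive fit lost the call under median centring (adjusted p = 0.0585), without the expression filter (0.0779) and without limma's intensity trend (0.122). The related Slc25a24 was at -0.12 at 8 months and -0.55 at 2 months and was not called (adjusted p = 0.172).

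Slc25a4, the ADP/ATP carrier best known from heart and muscle, fell, and 1 of its arrays stands apart. It read 4.22 in KO at 8 months and 4.32 in KO at 2 months, against 4.53 in WT at 8 months and 5.44 in WT at 2 months. WT at 2 months stands 0.91 above the next highest array, while KO and WT at 8 months are 0.31 apart. The limma difference was -0.72 (SE 0.17, adjusted p = 0.0169), with -0.31 at 8 months and -1.12 at 2 months. The call was lost without the expression filter (adjusted p = 0.0888) and in the fit on genotype alone with all 4 arrays (adjusted p = 0.0802). With an array left out of that fit the difference was -0.26 without WT at 2 months (adjusted p = 0.471) and -1.17 without WT at 8 months (adjusted p = 0.00026). Without KO at 8 months it was -0.67 (adjusted p = 0.271) and without KO at 2 months -0.77 (adjusted p = 0.299). Slc25a5, the ADP/ATP carrier of most dividing and epithelial cells, was not called, with -0.11 at 8 months and 0.01 at 2 months and a 95% interval of -0.22 to 0.12. Its 3 probe sets read 8.63 to 8.78, 9.93 to 9.99 and 9.83 to 9.93. The phosphate carrier Slc25a3 was at -0.11 and 0.16 at 8 and 2 months (adjusted p = 0.90).

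Of 7 stellate cell markers, Acta2, Col1a1 and Col3a1 fell and 0 rose. The matrix gene Dcn, at 0.07 and 0.12 at 8 and 2 months, was not called, nor were Lrat at 0.06, Des at -0.04 and Rgs5 at -0.06. Acta2, an actin of contractile cells, had a mean difference of -1.94. It read 4.43 and 4.62 in KO at 8 and 2 months, against 6.45 and 6.48 in WT at 8 and 2 months. Collagen Col1a1 read 5.35 and 5.28 in KO at 8 and 2 months, against 5.65 and 6.09 in WT at 8 and 2 months. Acta2, Col1a1 and Col3a1 were highest in WT at 2 months, but 8 minus 2 months in WT was only -0.03 for Acta2. Lrat and Dcn were highest in KO at 2 months, and Des and Rgs5 in WT at 8 months. The summed level of the marker list was 9.81 and 9.85 in KO at 8 and 2 months, against 9.91 and 9.93 in WT at 8 and 2 months. This sum is mostly Dcn, at 9.43 and 9.46 in KO and 9.36 and 9.34 in WT at 8 and 2 months. Of 4 skeletal muscle markers, 3 were tested, 0 were called and 0 had an unadjusted p under 0.05, and their summed level was 5.90 to 5.94. The part of stellate cells in the Slc25a4 difference was not tested.

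**Figure D2:**
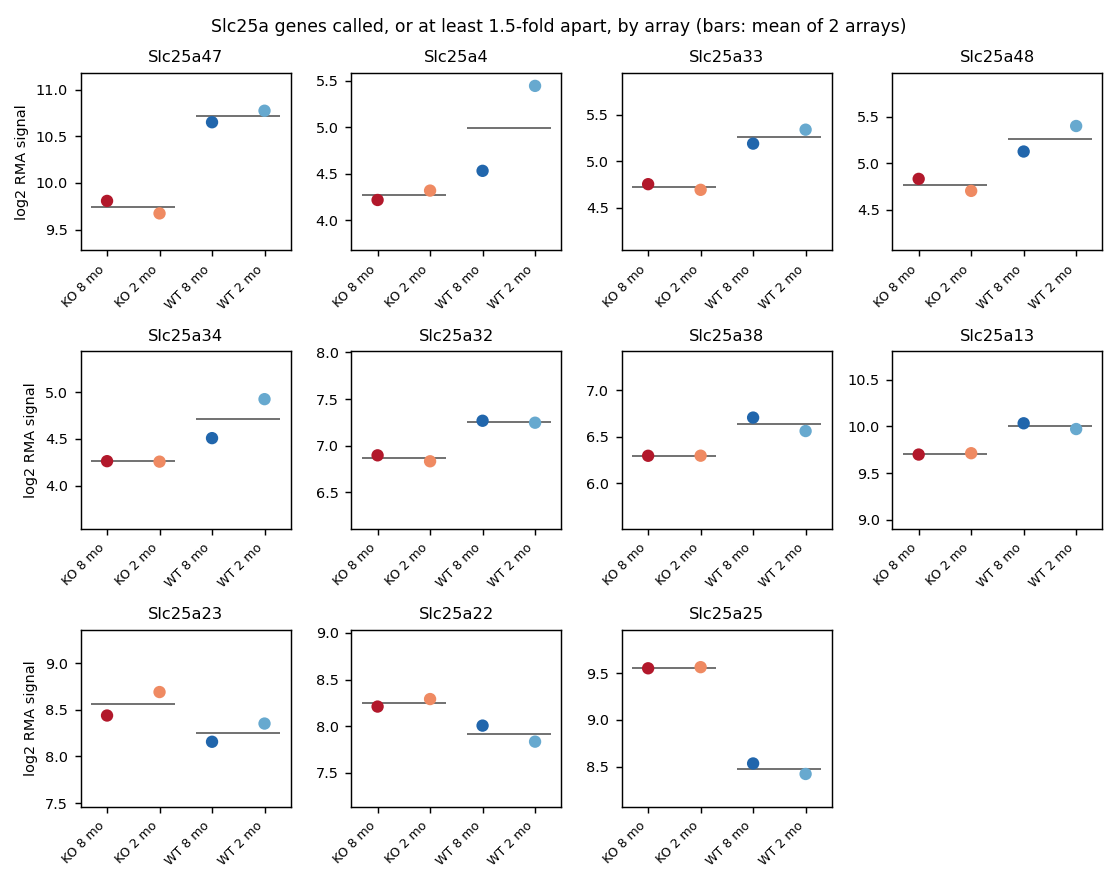
Log2 RMA signal (vertical axis, the same span in each panel) in each of the 4 arrays for the 11 Slc25a genes that were called or at least 1.5-fold apart at an age or between ages. Points are single arrays of pooled RNA and grey bars are means of 2 arrays. In each panel both KO points lie on the same side of both WT points, as for 54.8% of all genes tested. The panels were chosen by these same values, which favours such a separation. Slc25a4 in WT at 2 months stands apart from its other arrays.

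The acylcarnitine carrier and its relatives had 4 members, of which 2 fell and 0 rose, where 4.26% and 6.81% of all genes tested did. Slc25a47 read 9.81 in KO at 8 months and 9.67 in KO at 2 months, against 10.65 in WT at 8 months and 10.77 in WT at 2 months. The gap between the nearest KO and WT arrays was wider than the 0.13 between KO arrays and the 0.12 between WT arrays. Its limma difference was -0.97 (SE 0.08, 95% interval -1.15 to -0.79, adjusted p = 6.68e-06). Slc25a48, reported to carry choline, read 4.83 and 4.70 in KO at 8 and 2 months, against 5.13 and 5.40 in WT at 8 and 2 months. It fell with a limma difference of -0.50 (SE 0.13, adjusted p = 0.0317). On genotype alone that call was lost without KO at 8 months (-0.56, adjusted p = 0.0861), without KO at 2 months (-0.43, adjusted p = 0.203) and without WT at 2 months (-0.36, adjusted p = 0.25). The additive fit lost it with no expression filter (adjusted p = 0.0975) and with no intensity trend (0.0551).

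Slc25a20, which exchanges acylcarnitine for carnitine in fatty acid oxidation, was not called. It read 8.89 and 9.01 in KO at 8 and 2 months, against 9.12 and 9.10 in WT at 8 and 2 months (difference -0.16, 95% interval -0.33 to 0.01, adjusted p = 0.228). Slc25a45, a relative, was at 0.19 and 0.17 at 8 and 2 months (adjusted p = 0.327). Around the shuttle, 2 of 7 partner genes fell and 0 rose, where 4.26% and 6.81% of all genes tested did. Cpt1a, the rate-limiting carnitine acyltransferase of the outer membrane, was at -0.47 and -0.49 at 8 and 2 months (adjusted p = 0.0011). Slc22a5, the carnitine transporter of the plasma membrane, was at -0.74 and -0.63 (adjusted p = 0.0011). Crot, a peroxisomal carnitine acyltransferase, had the highest difference of the list, 0.21, and was not called.

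Carriers of amino acids and glutathione had 9 tested members, of which 1 rose and 2 fell, where 6.81% and 4.26% of all genes tested did. Slc25a13 (citrin), the aspartate-glutamate carrier of liver that serves the malate-aspartate shuttle and the urea cycle, read 9.70 and 9.71 in KO at 8 and 2 months, against 10.03 and 9.97 in WT at 8 and 2 months. The genotypes differed by more than either pair of arrays of 1 genotype, and the limma difference was -0.30 (SE 0.08, adjusted p = 0.0233). Fits on genotype alone gave -0.27 to -0.33, and the call was lost without KO at 8 months (adjusted p = 0.0554), without KO at 2 months (0.0641) and without WT at 8 months (0.0577). The additive fit lost it under median centring (adjusted p = 0.214), without the intensity trend (0.135) and without the expression filter (0.0671). Its paralog Slc25a12 (aralar), the form of brain and muscle, was at -0.15 and 0.06 at 8 and 2 months (adjusted p = 0.83). The difference between the paralogs was not tested.

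Slc25a22, a glutamate carrier, read 8.21 and 8.29 in KO at 8 and 2 months, against 8.01 and 7.83 in WT at 8 and 2 months. It rose by 0.33 (SE 0.09, adjusted p = 0.031), and on genotype alone the call was lost without KO at 8 months (0.37, adjusted p = 0.0766), without KO at 2 months (0.29, adjusted p = 0.182) and without WT at 2 months (0.24, adjusted p = 0.17). The additive fit lost it with no expression filter (adjusted p = 0.106) and with no intensity trend (0.127). Slc25a15, which exchanges ornithine for citrulline in the urea cycle, had both KO arrays above both WT arrays, with 0.13 and 0.32 at 8 and 2 months, but was not called (adjusted p = 0.102). The glutathione carriers Slc25a39 and Slc25a40 differed in sign, at -0.23 and 0.25, and neither was called. Slc25a40 rests on 2 probe sets. The first read 5.03 and 4.91 in KO at 8 and 2 months, against 4.65 and 4.49 in WT at 8 and 2 months, and the second 3.12 and 3.52 against 3.36 and 3.06, so they disagree in sign at 8 months. The basic amino acid carrier Slc25a29 was at -0.13 and Slc25a44, which carries branched-chain amino acids, at 0.06.

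Among enzymes that work beside citrin, 3 fell. Of 4 enzymes of the malate-aspartate shuttle, the cytosolic aspartate aminotransferase Got1 fell. It read 9.27 and 9.31 in KO at 8 and 2 months, against 10.01 and 9.76 in WT at 8 and 2 months (adjusted p = 0.000619). The mitochondrial form Got2, at 0.12 and 0.14 at 8 and 2 months, was not called. Of 7 urea cycle and ornithine genes tested, 2 fell and 0 rose, where 4.26% and 6.81% of all genes tested did. Argininosuccinate lyase (Asl) was at -0.88 and -0.65 and arginase (Arg1) at -0.39 and -0.24 at 8 and 2 months. Otc, which makes citrulline in the matrix, was at -0.05 and 0.30 and was not called.

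Slc25a38, which brings glycine into mitochondria for heme synthesis, fell with a limma difference of -0.34 (SE 0.10, adjusted p = 0.0457). It read 6.30 and 6.30 in KO at 8 and 2 months, against 6.70 and 6.56 in WT at 8 and 2 months. It had the highest adjusted p of the 10 called members, and in fits on genotype alone it was lost without any of the 4 arrays (adjusted p between 0.0564 and 0.226, difference -0.27 to -0.41). The additive fit lost it under median centring (adjusted p = 0.142), with the filter at the 20th percentile (0.0647), without a filter (0.115) and without the intensity trend (0.105). The mitoferrins import iron. Slc25a37 (mitoferrin 1), the form needed in red cell precursors, read 5.68 and 5.61 in KO at 8 and 2 months, against 5.29 and 5.32 in WT at 8 and 2 months. Both KO arrays were above both WT arrays, and the difference of 0.34 missed the threshold (adjusted p = 0.0806). Slc25a28 (mitoferrin 2), the widely expressed form, was at -0.01 at 8 months and -0.40 at 2 months (adjusted p = 0.318).

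Of 15 genes of heme and iron-sulfur synthesis, 2 rose and 3 fell, where 6.81% and 4.26% of all genes tested did. The aminolevulinate synthases Alas1 and Alas2, which start heme synthesis, rose by 0.34 and 0.64. Coproporphyrinogen oxidase (Cpox), the cysteine desulfurase Nfs1 and the porphyrin transport protein Tmem14c fell by 0.51, 0.37 and 0.33. Of 8 markers of red cell precursors 4 had a probe set of their own, and Alas2 and carbonic anhydrase Car1 rose, while Slc4a1 and Klf1 were at 0.22 and -0.41 and were not called. Klf1, lower in KO, had an unadjusted limma p of 0.00958. The summed level of these markers was 8.27 and 8.41 in KO at 8 and 2 months, against 7.63 and 7.78 in WT at 8 and 2 months. This sum is mostly Car1, at 7.66 and 7.88 in KO and 6.92 and 7.15 in WT at 8 and 2 months. The part of red cell precursors in the Slc25a37 and Slc25a38 values was not tested.

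Carriers of nucleotides and cofactors had 8 members, of which 2 fell and 0 rose, where 4.26% and 6.81% of all genes tested did. Slc25a33, which carries pyrimidine nucleotides, read 4.76 and 4.69 in KO at 8 and 2 months, against 5.19 and 5.34 in WT at 8 and 2 months. The limma difference was -0.54 (SE 0.12, adjusted p = 0.0141). On genotype alone the call was lost without KO at 8 months (-0.57, adjusted p = 0.0568), without KO at 2 months (-0.51, adjusted p = 0.0986) and without WT at 2 months (-0.46, adjusted p = 0.111). Its paralog Slc25a36 was at 0.02 at 8 months and 0.43 at 2 months (adjusted p = 0.378), the mean of 2 probe sets that differed in sign at 8 months.

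Slc25a32, linked to folate and flavin import, read 6.90 and 6.83 in KO at 8 and 2 months, against 7.27 and 7.25 in WT at 8 and 2 months. The KO arrays lay 0.06 apart and the WT arrays 0.02, and the limma difference was -0.39 (SE 0.09, adjusted p = 0.0131). On genotype alone the call was lost without KO at 2 months (-0.36, adjusted p = 0.0827). The additive fit lost it under median centring (adjusted p = 0.0586), with no expression filter (0.0512) and with no intensity trend (0.0628). In mitochondrial one-carbon and glycine metabolism, 1 of 7 genes tested rose and 0 fell, where 6.81% and 4.26% of all genes tested did. The 1 that rose was the glycine decarboxylase Gldc with 0.30 and 0.48 at 8 and 2 months. Of the other cofactor carriers, the highest was the peroxisomal Slc25a17 at 0.27 (adjusted p = 0.0658) and the lowest the coenzyme A carrier Slc25a42 at -0.26 (adjusted p = 0.117). The coenzyme A carrier Slc25a16 was at 0.05 and the S-adenosylmethionine carrier Slc25a26 at -0.13. Slc25a51, the carrier of NAD, the cosubstrate of sirtuins, was at -0.09 and 0.07 at 8 and 2 months (95% interval -0.20 to 0.19, adjusted p = 0.973).

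None of the 4 carriers of citrate and other di- and tricarboxylates was called in the limma fit, and 0 of them had an unadjusted p under 0.05. Slc25a1, which exports citrate for lipid synthesis, read 8.78 and 8.83 in KO at 8 and 2 months, against 8.84 and 8.88 in WT at 8 and 2 months (difference -0.06, 95% interval -0.23 to 0.11). The dicarboxylate carrier Slc25a10 was at -0.12, the oxoglutarate carrier Slc25a11 at -0.02 and the oxodicarboxylate carrier Slc25a21 at 0.05. On either side of citrate export, 5 of 8 genes from pyruvate to fatty acids rose and 1 fell. Over all genes tested 6.81% rose and 4.26% fell, and this list was chosen with earlier results of these data known. Fatty acid synthase (Fasn) rose by 1.11, acetyl-CoA carboxylase (Acaca) by 0.70, malic enzyme (Me1) by 0.57, ATP citrate lyase (Acly) by 0.49 and the pyruvate dehydrogenase subunit Pdha1 by 0.44. Pyruvate carboxylase (Pcx), which feeds oxaloacetate into the matrix, fell with -0.38.

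The relatives of uncoupling proteins, Slc25a14, Slc25a27 and Slc25a30, were not called, and 0 had an unadjusted p under 0.05. Their differences were 0.05 for Slc25a14, -0.12 for Slc25a27 and 0.21 for Slc25a30. Of the 4 tested members with roles in membrane dynamics or without a known substrate, 0 were called and Slc25a34 alone had an unadjusted p under 0.05. Slc25a34 read 4.26 and 4.26 in KO at 8 and 2 months, against 4.51 and 4.93 in WT at 8 and 2 months, with an adjusted p of 0.0568. It was called under each of 3 other normalizations, with adjusted p between 0.0281 and 0.0412. Slc25a46, which shapes mitochondria by fusion and fission, was at 0.13, and the orphans Slc25a35 and Slc25a43 were at 0.06 and -0.06.

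Of 15 ATP synthase genes tested 0 were called, with 1 unadjusted p under 0.05 and medians of -0.10 and -0.08 at 8 and 2 months. Of 13 genes of outer membrane channels and protein import 0 were called, with 3 unadjusted p-values under 0.05. Among 15 regulators of mitochondrial genes, where 11.1% of all genes tested were called, 2 rose, Myc by 1.00 and Atf4 by 0.51, and 5 fell. Those that fell were the coactivator Ppargc1b with -0.60, the fatty acid sensor Ppara with -0.49 and the mitochondrial transcription gene Tfb1m with -0.49. The CREB coactivator Crtc2 with -0.43 and the liver factor Creb3l3 with -0.32 fell too. An unadjusted limma p under 0.05 was reached by 10 of the 15. Not called among these were Ppargc1a at 0.43, Tfam at 0.42 and Esrra at -0.27 (limma adjusted p = 0.0763, 0.0573 and 0.185). In all, 10 of 93 partner genes rose and 14 fell, where 6.81% and 4.26% of all genes tested did. The partner lists were chosen with earlier results of these data known, so these shares are not a test of the partner genes.

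**Figure D3:**
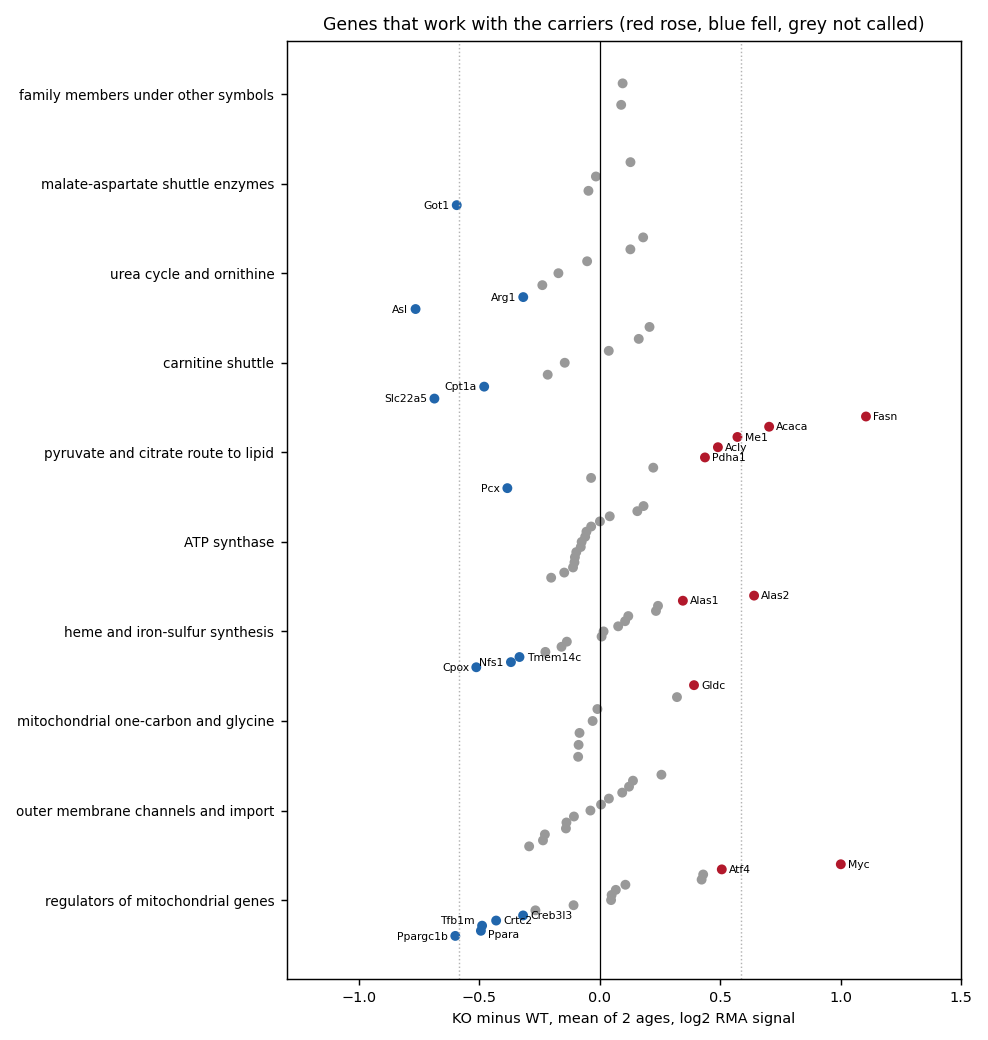
Mean KO minus WT difference in log2 RMA signal (horizontal axis) of the 93 tested genes that work with the carriers, in 10 lists. Each point is a gene, red where it rose, blue where it fell and grey where it was not called by limma. Dotted lines mark 1.5-fold. Of 8 genes of the route from pyruvate to lipid 5 are red, where 6.81% of all genes tested rose, and the 15 ATP synthase points are all grey.

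In the additive limma fit 0 of 40 members were called for 8 against 2 months, where 0.00836% of all genes tested were. An unadjusted p under 0.05 was reached by 2 members, where 3.6% of all genes tested reached it. They were Slc25a4 and Slc25a23, at 0.0116 and 0.0155, with age differences of -0.51 and -0.22. In KO, 0 members were 1.5-fold apart between the ages, against 0.652% of all genes tested. In WT, Slc25a4 was the 1 member that was, at -0.91, against 0.652% of all genes tested. The same gene was at -0.10 between the ages in KO, and with 1 array in each group a dependence of its age difference on genotype has no test. In both genotypes at once 0 members passed 1.5-fold, where 0.0167% of all genes tested did. Among called members, genotype differences at 8 and 2 months lay within 0.2 of each other for Slc25a25, Slc25a13, Slc25a38, Slc25a23 and Slc25a32, and 0.21 apart for Slc25a33, 0.25 for Slc25a22, 0.26 for Slc25a47, 0.40 for Slc25a48 and 0.81 for Slc25a4.

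**Figure D4:**
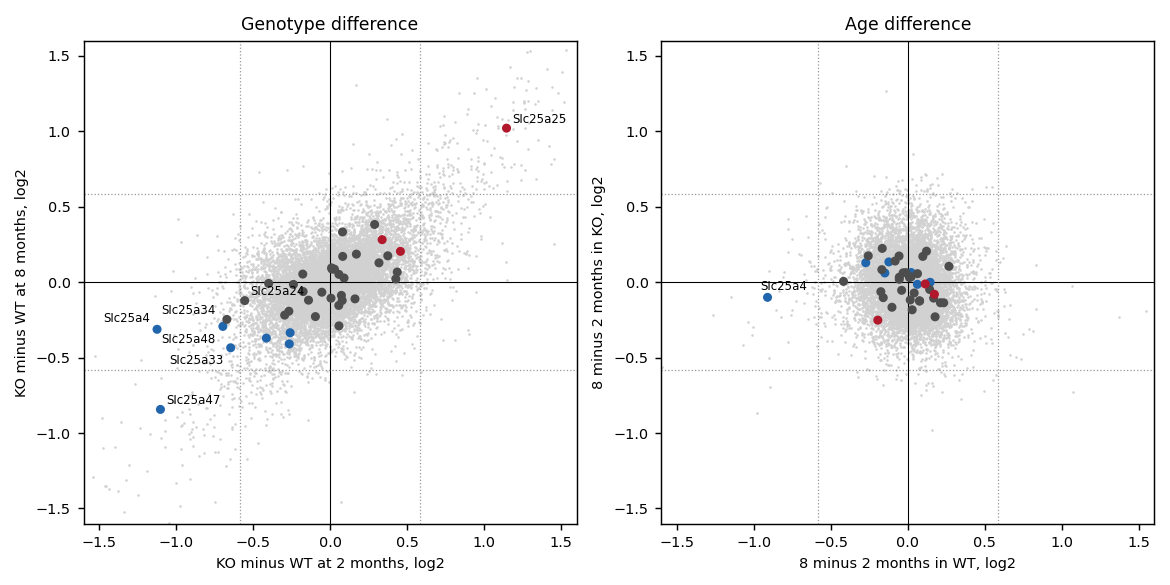
Left, KO minus WT at 8 months (vertical) against 2 months (horizontal); right, 8 minus 2 months in KO (vertical) against WT (horizontal), all in log2 RMA signal. Grey dots are the 11963 genes tested, some of which lie outside the axes, and larger dots are the 40 Slc25a genes, red where they rose, blue where they fell with genotype; on the right Slc25a4 at -0.91 in WT is the only member past the dotted 1.5-fold lines.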

How the data were processed

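Total RNA of liver was measured on 4 Affymetrix Mouse Gene 1.0 ST arrays, after RNA from 3 pairs of mice was pooled. What made up a pair, and so the number of mice behind each array, is not known here. The deposited log2 values are RMA signals, which the authors computed in Expression Console 1.0v according to the submitters' processing notes. Base 2 follows from RMA, since the table names no base. RMA corrects background, quantile normalizes arrays and summarises probes, which shrinks differences of dim probe sets and removes any change in total RNA. Array medians were 3.52 to 3.58. The number of arrays limits the precision.

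Of 35556 probe sets, 21789 had 1 platform symbol, 1621 had several and 12146 had none. Only those with 1 symbol were used, and 0 of those with several named an Slc25a gene. Symbols were checked through RefSeq identifiers of GRCm38.p6, which changed 0. Probe sets of a gene were averaged, giving 19938 genes. Genotype and age were fitted additively with lmFit and eBayes (intensity trend) of limma 3.58.1 in R 4.3.3, with a prior of 11.3 degrees of freedom. In 20 simulations of the 11963 genes, 200 of them were changed. The genotype term recovered a median of 100% of 2-fold and 79.5% of 1.5-fold changes, with 10% false calls. This share of false calls is above the one that the adjusted p threshold aims at. The arrays themselves gave 1325 genotype calls, and 1 array per group holds no spread between pools to simulate from. The simulations therefore do not show the recovery or the error rate for these arrays.

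Members, roles, partner lists, markers and alternatives were chosen with earlier results of these data known. Values in every array are given for members called or at least 1.5-fold apart at an age or between ages, and for other members where a paralog or pathway is described. Summed marker levels are log2 of summed unlogged signals.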

Additional observations from a re-analysis of the deposited data

How the results depend on the processing

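Under the 9 other settings on all 4 arrays, Slc25a25, Slc25a47 and Slc25a33 stayed called for genotype. The 10 called members kept their direction in these and in the leave-one-out fits, which is no test of that direction. Each has both KO arrays on the same side of both WT arrays, so leaving out 1 array cannot reverse it. Settings that alter only the filter, the moderation or the age term leave the difference itself unchanged. Member calls for genotype fell to 3 without the expression filter and to 4 without the intensity trend, and calls over all genes to 752 and 846. Under median centring, repeated quantile normalization and cyclic loess there were 7, 14 and 13 member calls, and 1293, 1773 and 1723 over all genes. Of members not called in the main fit, Slc25a34 and Slc25a39 were each called in 3 of the 9 settings. Slc25a42 was called in 2, and Slc25a15 and Slc25a17 in 1 each. Leaving out the age term and 1 array at a time gave 2 to 9 member calls (3 without KO at 8 months, 2 without KO at 2 months, 9 without WT at 8 months and 5 without WT at 2 months) and 504 to 1015 calls over all genes (839 without KO at 8 months and 839 without WT at 2 months). In these fits Slc25a25 and Slc25a47 were called without any 1 of the 4 arrays, Slc25a32 was not called in 1 fit, 6 members were not called in 3 fits and Slc25a38 was called in 0 of the 4. Slc25a4 and Slc25a23, among those 6, were not called on genotype alone with all 4 arrays either, so for them leaving out an array and leaving out age cannot be told apart. With age left out, the additive fit with 3 arrays having no residual, each lone array is assumed to vary like the others.

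Member calls for age stayed at 0 in every setting. Over all genes, 1 gene was called for age; this became 0 without the filter, at the 20th percentile, without the trend, with robust moderation, with genotype left out and in each leave-one-out fit, 2 with the brightest probe set, 3 under repeated quantile normalization, 3 under cyclic loess and 14 under median centring. The cause was not tested. Higher calls made up 61.5% of calls over all genes, 51.0% under repeated quantile normalization (904 higher, 869 lower), 54.4% under cyclic loess and 69.7% under median centring (901 higher, 392 lower). Among called members they made up 30.0%, and 28.6%, 23.1% and 28.6% under the same 3 settings. In the same direction at both ages, 4 members passed the lower fold threshold tried and 1 passed 2-fold. No paired analysis was possible because each group holds 1 array and the labels number no pairs.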

Other observations

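Members of the family under other symbols were measured too. Mtch1 and Mtch2, carrier-like proteins of the outer membrane, were at 0.09 each for KO minus WT and were not called in the limma fit. The uncoupling proteins Ucp1 and Ucp3 did not pass the expression filter, and Ucp1 read 2.30 and 2.47 in KO at 8 and 2 months, against 2.54 and 2.61 in WT at 8 and 2 months.

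Among protein-coding genes of the RefSeq table, 4 pairs of members are direct neighbours, and each pair held at most 1 called gene. Slc25a47, which fell, lies beside Slc25a29 on chromosome 12, which read 3.86 and 3.83 in KO at 8 and 2 months, against 3.98 and 3.97 in WT at 8 and 2 months (limma adjusted p = 0.605). Slc25a23, which rose, lies beside Slc25a41 on chromosome 17, which did not pass the filter. Slc25a24 and Slc25a54 on chromosome 3, and Slc25a43 and Slc25a5 on chromosome X, held 0 called genes.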
